A study of Mus musculus with 6 samples.

Results

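The 32 genes described here carry glucose into the cell, break it down to pyruvate and lactate, or belong to the response to low oxygen. They were taken by name, and a probe set was used where 1 of these genes was its only annotated symbol: 29 of the 32 genes had such probe sets, 63 in all, among 18193 genes on the array. Gpi1, Eno1 and Gapdh had no probe set of their own and are not analysed here. All 29 genes passed the filter on low signal and were tested among 14755 genes. Expression was measured on 6 Affymetrix arrays of A2.Snail cells, mouse embryonic stem cells (ESCs) derived from the A2lox line, in which the Snail cDNA sits behind a doxycycline-inducible promoter. The cells of all 6 arrays were differentiated as embryoid bodies in the presence of DKK, the Wnt inhibitor Dickkopf, after 1 passage without the feeder layer of irradiated mouse embryo fibroblasts. The DKK + dox cultures received 250 ng/mL doxycycline (dox) from day 2, the DKK cultures received none, and RNA was taken 6, 12 and 24 hours later, on days 2.25, 2.5 and 3. Each condition and time had 1 array, so a difference at one time is a difference of 2 arrays and has no test, and no array held dox without the Snail transgene, so the effects of dox and of Snail cannot be told apart.

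Glycolysis splits glucose into pyruvate, which is either reduced to lactate and exported or passed to the mitochondria through the pyruvate dehydrogenase complex. In normal oxygen the prolyl hydroxylases mark the alpha subunit of hypoxia-inducible factor (HIF) for destruction; when oxygen is low HIF accumulates, binds DNA at the core letters ACGTG, and raises glucose transporters, glycolytic enzymes, lactate dehydrogenase A and pyruvate dehydrogenase kinase, along with its own hydroxylases. Pluripotent stem cells are known for a high rate of glycolysis, and Snail is a zinc finger repressor that binds E-boxes such as CACCTG.

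The promoters of these genes were read from RefSeq windows of 250 bases before to 50 bases after each annotated start (GRCm38.p6), and both strands were searched for ACGTG, the HIF core, and for CACCTG, the E-box. ACGTG is also part of the palindromic E-box CACGTG, and the same letters were counted once a gene. Of the 31 members with a window, 22 held ACGTG, or 71.0%, against 21.8% of 27025 genes. Among genes tested on the arrays the shares were 75% of 28 members and 27.7% of 11807 genes. The list holds known HIF targets by choice, so this difference is a description of the list. CACCTG was in 8 of the 31, or 25.8%, against 22.6% of all genes. Stretches are shown for 5 of the genes that passed the test of the Snail effect and for 2 that did not, as examples of how the HIF core lies in these promoters. Capitals mark ACGTG or its reverse complement CACGT, and CACCTG. Each line is the gene's own strand, 5′ to 3′. The stretches are Bnip3 at chr7:138909574-138909648 (minus strand), Egln1 at chr8:124949283-124949357 (minus strand), Hk2 at chr6:82774467-82774541 (minus strand), Pgk1 at chrX:106186934-106187008 (plus strand), Slc16a1 at chr3:104638430-104638504 (plus strand), Egln3 at chr12:54204064-54204124 (minus strand) and Ldha at chr7:46845735-46845803 (plus strand).
Bnip3: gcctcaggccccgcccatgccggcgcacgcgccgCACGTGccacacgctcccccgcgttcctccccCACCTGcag
Egln1: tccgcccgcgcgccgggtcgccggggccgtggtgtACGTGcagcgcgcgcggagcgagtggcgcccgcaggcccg
Hk2: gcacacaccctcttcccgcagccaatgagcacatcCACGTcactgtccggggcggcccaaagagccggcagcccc
Pgk1: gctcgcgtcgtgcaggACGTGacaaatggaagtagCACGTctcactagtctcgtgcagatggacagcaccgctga
Slc16a1: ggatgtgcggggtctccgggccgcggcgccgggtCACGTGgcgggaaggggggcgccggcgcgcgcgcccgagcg
Egln3: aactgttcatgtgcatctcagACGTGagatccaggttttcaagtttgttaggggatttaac
Ldha: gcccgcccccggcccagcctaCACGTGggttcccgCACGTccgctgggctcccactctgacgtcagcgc
Each stretch surrounds the upstream ACGTG match nearest the start. Within the stretches, Bnip3, Slc16a1 and Ldha hold the palindrome CACGTG, and Pgk1 and Ldha hold ACGTG matches at more than 1 place. Matches elsewhere in the windows are not shown, such as ACGTG at -226 in Hk2 and CACCTG at -235 in Egln1. No ACGTG was found in the windows of Pfkl, Pdk1, Pfkp, Tpi1, Eno2, Ldhb or Pdha1, and Slc2a3 had no window. A match of letters does not show that a factor binds there.

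The arrays had medians of 53.5 to 63.7, and on each of them 37.5% to 41.3% of the probe sets did not exceed 37.2, the low-signal limit. Endogenous Snai1, by its 1 probe set, was below it on all 6 arrays and did not report the transgene. Hprt, beside which the inducible cassette of A2lox cells lies, read 405, 330 and 331 on the DKK arrays at 6, 12 and 24 hours and 603, 1065 and 2293 on the DKK + dox arrays. The 7 ES cell and epiblast markers were above the limit on all 6 arrays, and 4 of them fell with dox. Markers of other cell types also differed between arrays. Of 10 visceral endoderm markers 2 did not exceed the limit on any array. The other 8 summed to 4276, 2482 and 2762 in DKK and to 3918, 1907 and 2160 in DKK + dox, mostly through Apoe (2746 of the first sum). At 24 hours 6 of the 8 were higher with dox, Sox17 by 2.04 in log2 units, and 2 were lower, Ttr at -0.90 and Apoe at -0.89. Sox17 and Apoe passed the test of the Snail effect, in opposite directions. Of 9 feeder fibroblast markers 2 did not exceed the limit on any array. The other 7 summed to 2539, 1136 and 1049 and to 2175, 1396 and 2448, mostly through Fn1 (1914 of the first sum). At 24 hours 6 of the 7 were higher with dox. Fibronectin, which Fn1 encodes, was also used by the authors as a mesenchymal marker, and they reported that Snail induced it under Wnt inhibition. The 10 parietal endoderm markers summed to 4617, 3848 and 3289 and to 4516, 4382 and 6365, and 9 were higher with dox at 24 hours. In bulk RNA, fewer cells of a type and less RNA per cell cannot be told apart, and the part of these cells in the results below was not tested.

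With dox-induced Snail a minority of the glycolysis and hypoxia genes changed, by less than 2-fold and in both directions. Hk2, Pfkl and Pgk1, all enzymes of glycolysis, rose with dox, as did the hydroxylase Egln1 and the mitochondrial protein Bnip3. The transporters Slc2a3 and Slc16a1 and the kinase Pdk1 fell. These 5 increases were 17.2% of the 29 genes, where 8.32% of all genes tested rose, and the 3 decreases were 10.3%, where 6.38% of all genes fell. The other 21 did not pass. The test was limma with Benjamini-Hochberg adjustment over all 14755 genes, on log2 intensity (plus an offset of 20.6). It took the DKK + dox minus DKK difference as proportional to hours after dox and asked whether its size differed from 0. That course was assumed, so a gene that passed need not have a difference that grew steadily. The fitted value is given at 24 hours, and its p-value sets it against the scatter of these arrays around that course, not against the spread between cultures, since there were no replicates. Other fits took the difference as constant over time, time as a straight line in place of a block, or no intensity trend in eBayes. In each of them 0 of the 29 genes rose and 0 fell. Of all genes tested these fits called 0% higher and 0% lower, 0.82% and 0.542%, and 1.42% and 0.515%. The 0 is thus near the share over the whole array. By unadjusted p from limma 12, 8 and 9 of the 29 were under 0.05, as were 2927, 2416 and 3820 of all 14755 genes. Without the pair of arrays at 6 hours, 2 rose and 1 fell (5.37% and 3.61% of all genes); without the pair at 12 hours, 4 and 2 (6.45% and 5.11%); and without the pair at 24 hours, 1 and 2 (1.55% and 3.38%).

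**Figure D1:**
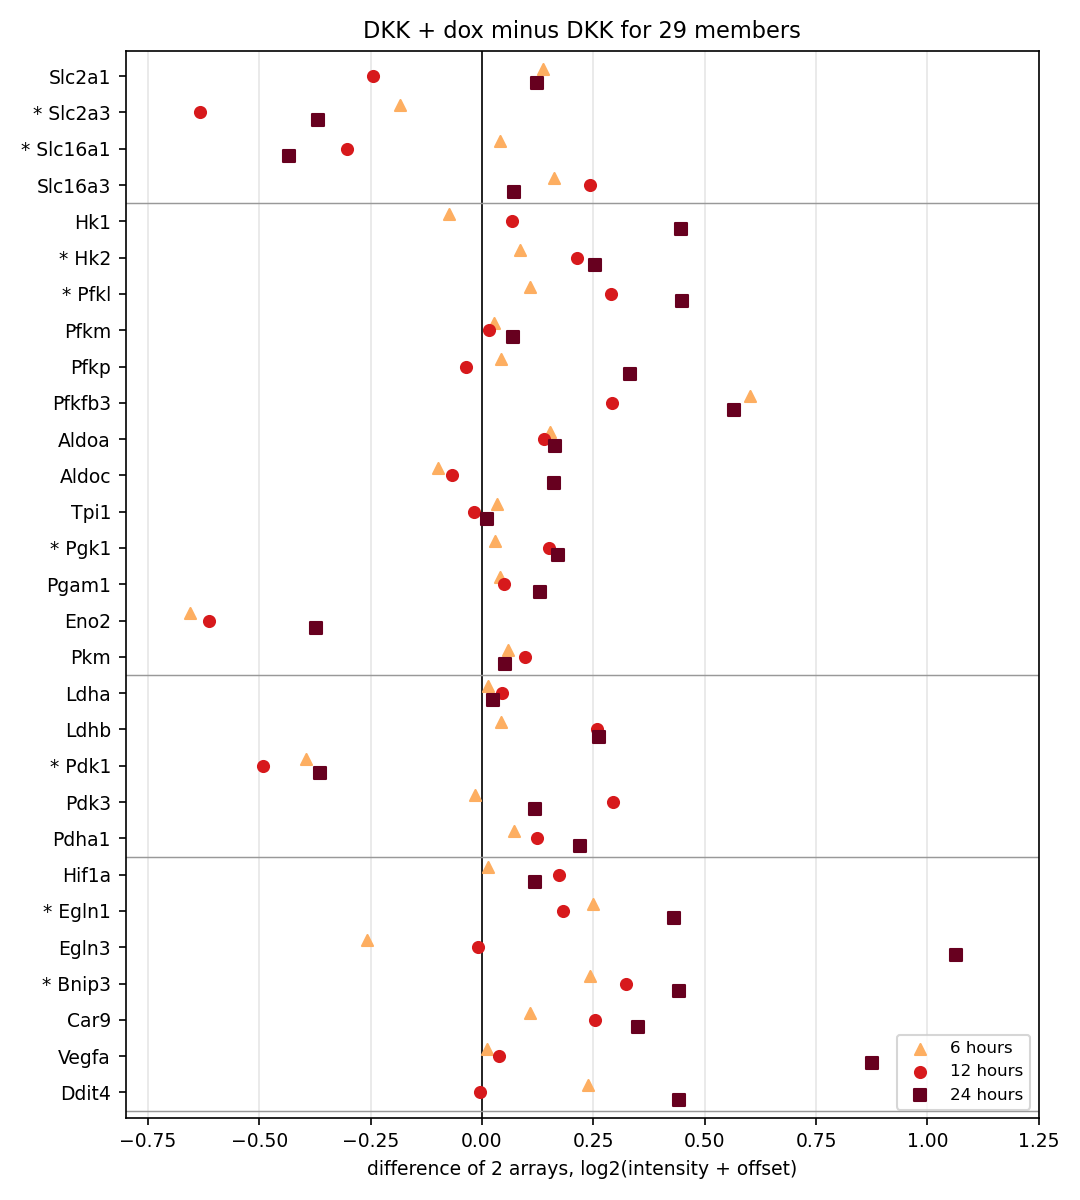
The DKK + dox minus DKK difference in log2 intensity at 6, 12 and 24 hours, 1 point per time, for each of the 29 genes in groups by role divided by grey lines, with an asterisk at genes whose trend passed an adjusted p of 0.05. Each point is a difference of 2 arrays and has no error bar. Most points at 24 hours lie to the right of 0, with Egln3 farthest at 1.06, and Slc2a3, Pdk1 and Eno2 lie to the left at all 3 times.

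Read time by time, the differences were small and mostly positive. The median over the 29 genes was 0.04 at 6 hours, 0.07 at 12 hours and 0.16 at 24 hours on the log2 scale, against -0.04, 0.03 and 0.02 over all genes tested. At 24 hours 25 of the 29 genes were higher with dox, where 52.3% of all genes were. Of 9 housekeeping genes 8 were also higher, with a median of 0.05, so this lean was not particular to the members. Of 27 genes of pyruvate entry and the TCA cycle 16 were higher. In 17 of the 29, or 58.6%, the dox array was above its DKK array at all 3 times, against 21.5% of all genes, and in 3 it was below at all 3 times, against 21.9%. After quantile normalization 17 were higher at all 3 times, against 23.7% of all genes, and 3 lower, against 19.7%; after centring each array on its median 21 were higher, against 28% of all genes, and 3 lower, against 16.1%. On the log2 scale with the offset only Egln3 differed by 2-fold or more, at 24 hours, where 3.12% of all genes were that much higher. On the probe set of highest mean, all 3 dox arrays lay above all 3 DKK arrays for 6 genes, Slc16a3, Hk2, Pgk1, Ldha, Ldhb and Bnip3 (5.1% of all genes did so), and below them for Slc2a3 and Pdk1 (7.09% of all genes). The nearest Ldha arrays read 11709 in DKK and 11738 with dox. The other probe sets of Pgk1, Ldhb, Slc2a3 and Pdk1 overlapped between conditions, except a Pdk1 probe set at 22.8 to 43.6.

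The transporters split. Slc2a3, the glucose transporter GLUT3, read 4096, 3737 and 4236 on the DKK arrays at 6, 12 and 24 hours and 3602, 2403 and 3278 on the DKK + dox arrays. On this probe set every DKK array was above every dox array, and the gap was widest at 12 hours. Its fitted change was -0.56 (SE 0.14), with an adjusted p of 0.0396 from limma. Its 4 probe sets were all lower with dox at 12 hours, by -1.33 to -0.52, and at 24 hours, by -0.61 to -0.37, while at 6 hours 2 were lower and 2 higher; with the probe sets of plain name alone the fitted change was -0.96 and did not pass (adjusted p = 0.119 from limma). Slc16a1, the lactate and pyruvate transporter MCT1, read 1721, 2205 and 2481 on the DKK arrays, against 1771, 1783 and 1831 with dox. The DKK arrays read higher at each later time while the dox arrays differed little, so the conditions were close at 6 hours and apart at 12 and 24 hours. Its fitted change was -0.44 (SE 0.09, adjusted p = 0.0211 from limma). Slc2a1, the glucose transporter GLUT1, read 4611, 3571 and 4028 without dox and 5075, 3012 and 4390 with it. It was lower with dox at 12 hours and higher at 6 and 24 hours, and its 3 probe sets shared the lower value at 12 hours (adjusted p = 0.907 from limma). Slc16a3, the lactate exporter MCT4, read between 1412 and 1529 in DKK and between 1609 and 1686 in DKK + dox, without overlap, and did not pass (adjusted p = 0.321 from limma).

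**Figure D2:**
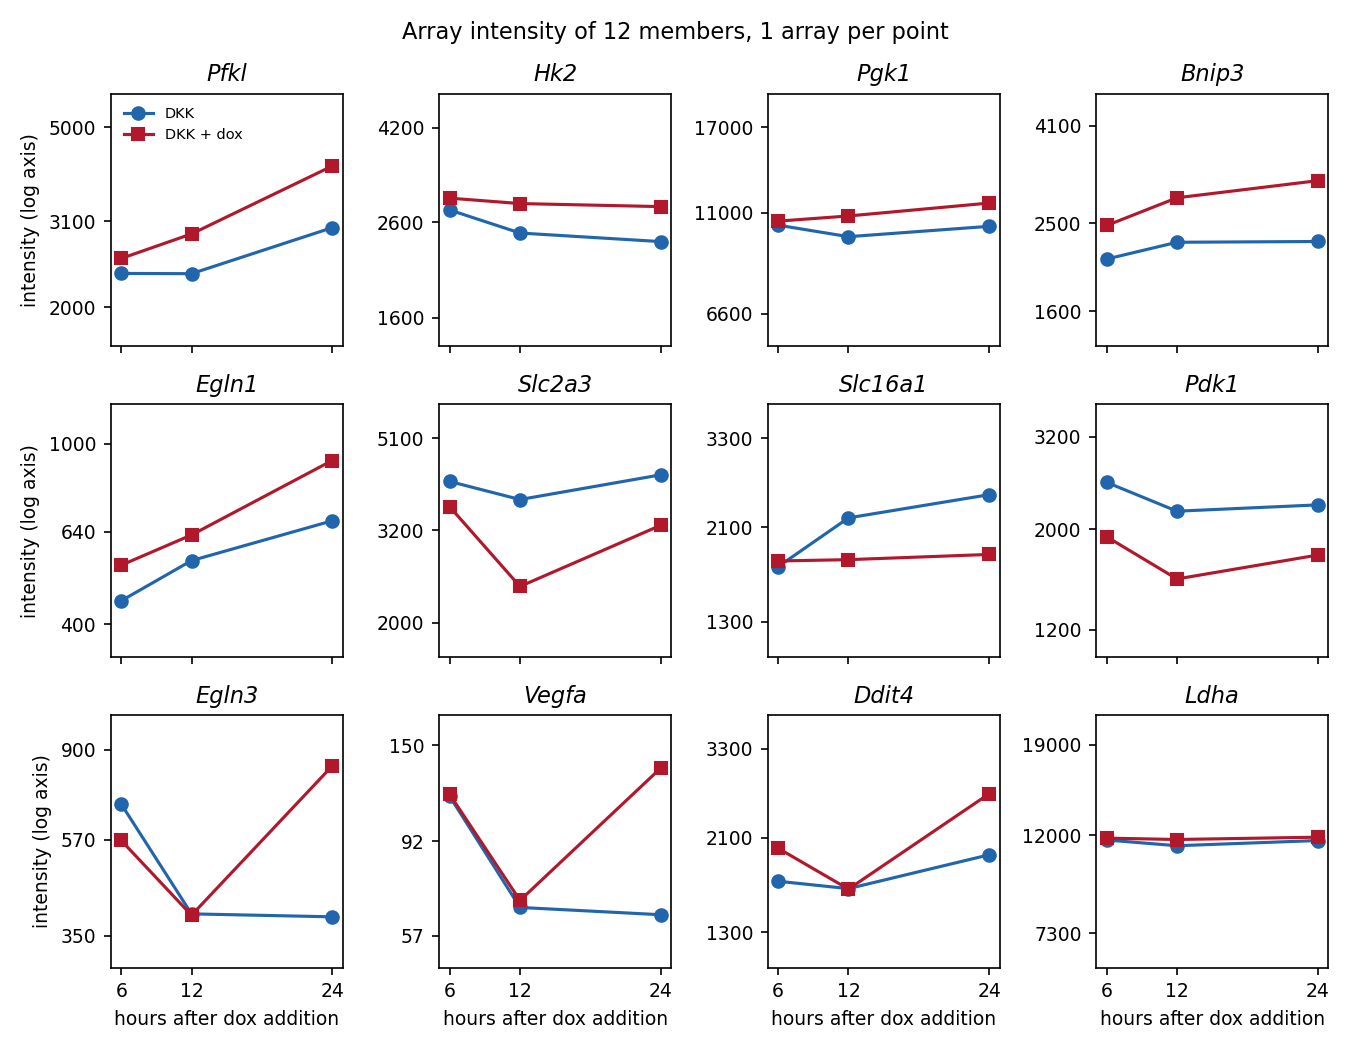
Intensity of 12 genes (vertical log axis) by hours since dox (horizontal axis), with 1 array per point, blue circles for DKK and red squares for DKK + dox. Panels differ in level but span the same ratio. Slc2a3 and Pdk1 run lower in DKK + dox, Bnip3 and Pfkl run higher, and Egln3 and Vegfa separate at 24 hours, where they read 829 and 133 with dox against 386 and 63.4 without.

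Among the 13 glycolytic enzymes, 3 rose and 0 fell. Pfkl, the liver-type phosphofructokinase that commits sugar to glycolysis, read 2378, 2375 and 2999 on the DKK arrays, against 2565, 2906 and 4102 with dox. The dox array was the higher at each time and the gap grew from 0.11 to 0.29 to 0.45 in log2 units. Its fitted change was 0.47 (SE 0.07, adjusted p = 0.00565 from limma), the lowest p among the 29. Its second probe set gave a fitted 0.45 and passed, while the third, at 68.9 to 87.6, differed by 0.01 at 24 hours and did not (a fitted 0.08, adjusted p = 0.849 from limma). Hk2, the hexokinase that traps glucose in the cell, read 2764, 2459 and 2354 without dox and 2935, 2856 and 2812 with it. DKK intensities were lower at each later time, and every dox array was above every DKK array. Its fitted change was 0.29 (SE 0.07, adjusted p = 0.0336 from limma). Pgk1, the first enzyme of the pathway to yield ATP, read 10337, 9751 and 10277 on the DKK arrays, against 10552, 10832 and 11566 with dox. On this probe set the arrays did not overlap, though the change was small, at 0.19 (SE 0.04, adjusted p = 0.0295 from limma). Its other 2 probe sets overlapped between conditions, and were lower with dox at 6 hours and higher at 12 and 24 hours.

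The other 10 enzymes did not pass. Aldoa, the main aldolase, read 7364, 7372 and 8545 without dox and 8189, 8123 and 9576 with it. It was higher with dox at each time and did not pass (a fitted 0.21, SE 0.06, adjusted p = 0.0516 from limma). Tested 1 probe set at a time, another of its 5 probe sets rose (a fitted 0.24, adjusted p = 0.0296 from limma). A further one was lower with dox at 12 hours, by -0.06. Pfkfb3, which makes the fructose bisphosphate that activates phosphofructokinase, read 40.5, 95.8 and 102 on the DKK arrays, against 72.0, 122 and 161 with dox. It was higher with dox at each time, at low signal, and its fitted change of 0.66 had an SE of 0.24 (adjusted p = 0.119 from limma); its second probe set, at 34.3 to 54.9, was lower with dox at 12 hours. Eno2, the neuronal enolase, was the one enzyme lower with dox at all 3 times, at 86.1, 52.2 and 44.4 without dox and 47.2, 27.0 and 29.6 with it. Its last 2 dox arrays were under the low-signal limit, and it did not pass (adjusted p = 0.223 from limma). For the remaining 7, Hk1, Pfkm, Pfkp, Aldoc, Tpi1, Pgam1 and Pkm, the difference at 24 hours was between 0.01 and 0.45.

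The enzymes that decide the fate of pyruvate did not move together. Pdk1, the kinase that switches off pyruvate dehydrogenase, read 2537, 2191 and 2263 without dox and 1925, 1553 and 1754 with it. On its probe set of highest mean all DKK arrays were above all dox arrays, and its 4 probe sets were lower with dox at each time. Its fitted change was -0.54 (SE 0.14, adjusted p = 0.0437 from limma), but the gap was already -0.39 at 6 hours and was -0.49 and -0.36 at 12 and 24 hours, so it did not grow steadily. Pdha1, the catalytic subunit of pyruvate dehydrogenase, read 3040, 2449 and 2651 on the DKK arrays, against 3196, 2669 and 3093 with dox, a fitted 0.23 (SE 0.06, adjusted p = 0.0550 from limma). Ldha, which turns pyruvate into lactate, stayed between 11373 and 11877 on all 6 arrays. Ldhb, its partner subunit, read 1120, 1024 and 1149 without dox and 1155, 1229 and 1384 with it, without overlap (0.31, SE 0.10, adjusted p = 0.0730 from limma). The other Ldhb probe sets overlapped between conditions. Pdk3, a second kinase of the complex, read between 622 and 767 (adjusted p = 0.353 from limma).

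The 7 genes of HIF regulation and the hypoxia response were all higher with dox at 24 hours, with a median of 0.44 against 0.02 over all genes tested, and 2 of them passed. Bnip3, a HIF target that takes part in mitophagy, read 2086, 2271 and 2280 on the DKK arrays, against 2473, 2847 and 3105 with dox. Every dox array was above every DKK array, and the gap grew from 0.24 to 0.32 to 0.44. Its fitted change was 0.51 (SE 0.08, adjusted p = 0.00913 from limma). Egln1, the prolyl hydroxylase PHD2 that marks HIF alpha, read 451, 553 and 676 without dox and 540, 629 and 918 with it, with the dox array higher at each time (0.44, SE 0.12, adjusted p = 0.0451 from limma). Its second probe set was lower with dox at 12 hours, by -0.06, and higher at 24 hours, by 0.39. Hif1a, the regulated subunit itself, read 2633, 3106 and 3727 on the DKK arrays, against 2658, 3504 and 4051 with dox, and did not pass (0.16, SE 0.07, adjusted p = 0.182 from limma). Its other probe sets gave a fitted 0.47, 0.14 and 0.04 and did not pass (adjusted p = 0.0591, 0.622 and 0.963 from limma). The first of these read 503 to 840.

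Egln3, Vegfa and Ddit4 had their largest difference at 24 hours. Egln3, the hydroxylase PHD3 and itself a HIF target, read 684, 392 and 386 without dox and 568, 389 and 829 with it. It was lower with dox at 6 hours, level at 12 hours and 2.15-fold higher in intensity at 24 hours, with a fitted 0.76 (SE 0.24) that did not pass (adjusted p = 0.0797 from limma). Its 2 probe sets gave 1.06 and 1.31 at 24 hours. Vegfa, the vascular growth factor, read 116, 65.8 and 63.4 on the DKK arrays, against 117, 68.2 and 133 with dox (0.68, SE 0.23, adjusted p = 0.0958 from limma), and its second probe set showed a smaller difference at 24 hours, 0.28 in place of 0.87. Ddit4, the mTOR inhibitor REDD1, read 1683, 1621 and 1925 without dox and 1990, 1617 and 2624 with it (0.38, SE 0.11, adjusted p = 0.0567 from limma), and was already higher with dox at 6 hours, by 0.24. Car9, the carbonic anhydrase used as a hypoxia marker, was near the limit at 21.2 to 57.5 and did not pass (adjusted p = 0.366 from limma). Tested 1 probe set at a time over 26362 probe sets, 8 of 62 rose, where 6.81% of all did, and 4 fell, where 5.12% of all did. The second Egln3 probe set was among those that rose, as were 1 of Aldoa and 2 of Pfkl.

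**Figure D3:**
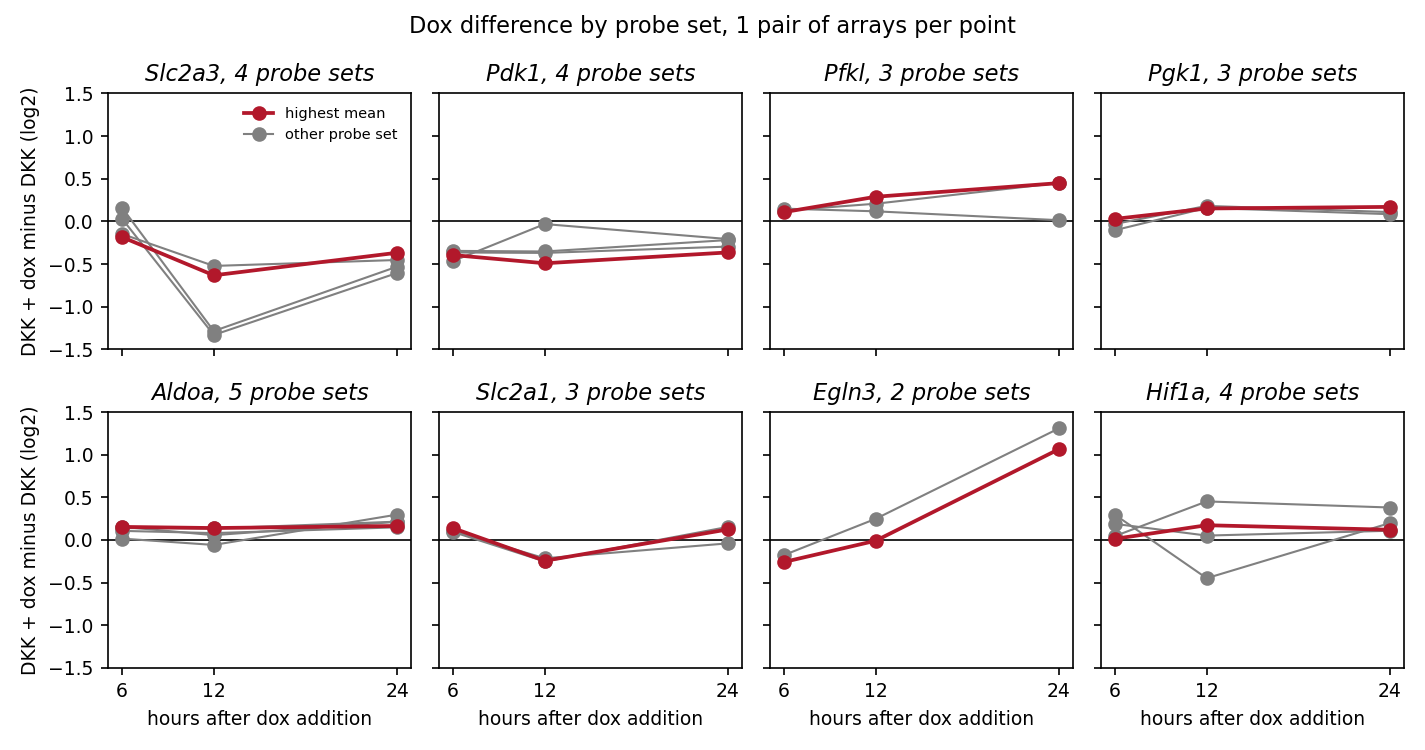
The DKK + dox minus DKK difference in log2 intensity (vertical axis) at 6, 12 and 24 hours (horizontal axis) for each probe set of 8 genes, with the probe set of highest mean in red and the others in grey; each point is a difference of 2 arrays. All Slc2a3 lines lie below 0 at 12 and 24 hours, and both Egln3 lines reach 1.06 or more at 24 hours.

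In the DKK cultures, without dox, the larger changes came between 6 and 12 hours. From 6 to 12 hours 9 of the 29 genes fell, or 31.0%, where 14.1% of all genes did, and 2 rose, or 6.90%, where 11.3% of all did. These are contrasts of the same limma fit, in which the dox arrays also inform the course over time. Pfkp, the platelet-type phosphofructokinase, fell the most: it read 699, 333 and 354 in DKK at the 3 times, a fitted change of -1.09 (SE 0.11, adjusted p = 0.00106 from limma), and was the only member 2-fold or more lower in the measured difference, at -1.02 (4.57% of all genes were). Its 3 probe sets all showed the drop. Slc2a1, Hk1, Aldoc, Egln3, Car9 and Vegfa fell by a fitted 0.56 to 0.77, Pfkm by 0.37 and Pdha1 by 0.31. For Slc2a1, fitted at -0.56, the measured difference was -0.37 in DKK and -0.75 with dox. Car9 read 51.8 and then 21.2 in DKK, the latter under the low-signal limit. Second probe sets of Hk1, Egln3 and Vegfa were also lower, by a fitted -0.38, -0.51 and -0.45. They did not pass (adjusted p = 0.242, 0.0796 and 0.106 from limma). Hif1a rose by 0.30 (SE 0.06, adjusted p = 0.0108 from limma) and Pfkfb3, from low signal, by 0.70 (SE 0.20, adjusted p = 0.0394 from limma). In the measured differences 21 of the 29 were lower at 12 hours, where 58% of all genes were. After centring each array on its median 12 were lower, where 42.7% of all genes were, and 17 higher, where 57.3% were. With centring 6 members fell and 3 rose by the contrast, in place of 9 and 2. No share over all genes is given beside these 2 counts. The median over all genes for this step was -0.08 as deposited, -0.01 after quantile normalization and 0.08 after centring. Fits with time as a line called 0 members in either direction. The visceral endoderm, feeder fibroblast and parietal endoderm markers were also lower over this step, with medians of -0.92, -0.77 and -0.44 over their genes, and their part in it was not tested.

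From 12 to 24 hours in DKK no member passed, where 0.00678% of all genes rose and 0.163% fell. By unadjusted p from limma 11 of the 29 were under 0.05, as were 2288 of all 14755 genes. Aldoc had the lowest adjusted p of the members, 0.0904. In the measured values 25 of the 29 were higher at 24 than at 12 hours, where 52.4% of all genes were. After quantile normalization 24 were, against 50.6% of all genes, and after centring 23, against 50.2%. The housekeeping genes were also higher as deposited, by 0.02 to 0.24, except Tbp at -0.16, so this was not particular to the members.

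**Figure D4:**
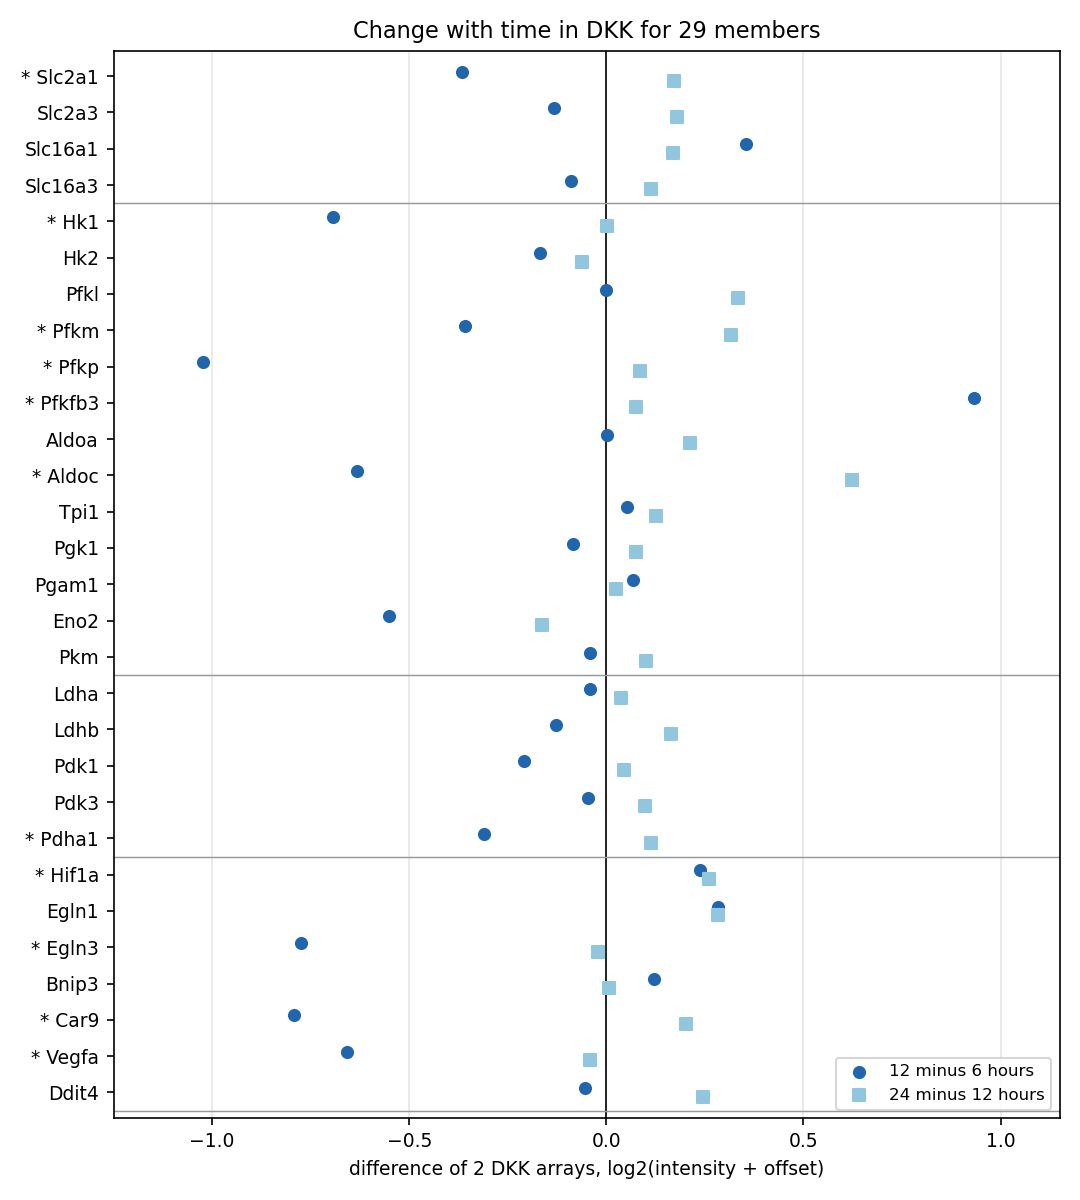
Log2 intensity difference between DKK arrays, 12 minus 6 hours and 24 minus 12 hours, for each of the 29 genes by role, with an asterisk at genes whose 12 minus 6 hour contrast passed an adjusted p of 0.05. Each point is a difference of 2 arrays. Pfkp is farthest to the left for 12 minus 6 hours, at -1.02.

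The other genes of these pathways were listed for comparison with 8.32% of all genes that rose, 6.38% that fell and a median over all genes of 0.02 at 24 hours. Of 30 further hypoxia response genes tested, 9 rose with dox (30%) and 1 fell (3.33%), with a median of 0.21 at 24 hours. Ccng2, an atypical cyclin induced by hypoxia, read 217, 250 and 305 on the DKK arrays, against 406, 538 and 895 with dox, and had the largest fitted change of the list (1.70, SE 0.21, adjusted p = 0.00330 from limma). Plod1, a collagen lysyl hydroxylase, rose by 1.29 (SE 0.23, adjusted p = 0.0128 from limma) and Cited2, which competes with HIF for its coactivator, by 1.04 (SE 0.09, adjusted p = 0.00139 from limma). The transferrin receptor Tfrc fell by 0.51. Epas1, the other HIF alpha subunit, read 1695, 650 and 267 without dox and 1518, 622 and 574 with it, and did not pass (adjusted p = 0.0672 from limma). Of 22 further glycolysis genes 2 rose, Pgm1 by 0.82 and Eno3 by 0.67, and Tigar, which lowers fructose bisphosphate, fell by 0.74. Of 27 genes of pyruvate entry and the TCA cycle, Idh2 rose by 0.57 and Idh3a fell by 0.31. Of 7 genes of the pentose phosphate pathway, Taldo1 fell by 0.43. Of 9 housekeeping genes, among them Sdha, which is also in the TCA cycle list, 2 rose and 0 fell. These lists were drawn up with earlier results of these arrays known, and nothing is read from their counts beyond the values.

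**Figure D5:**
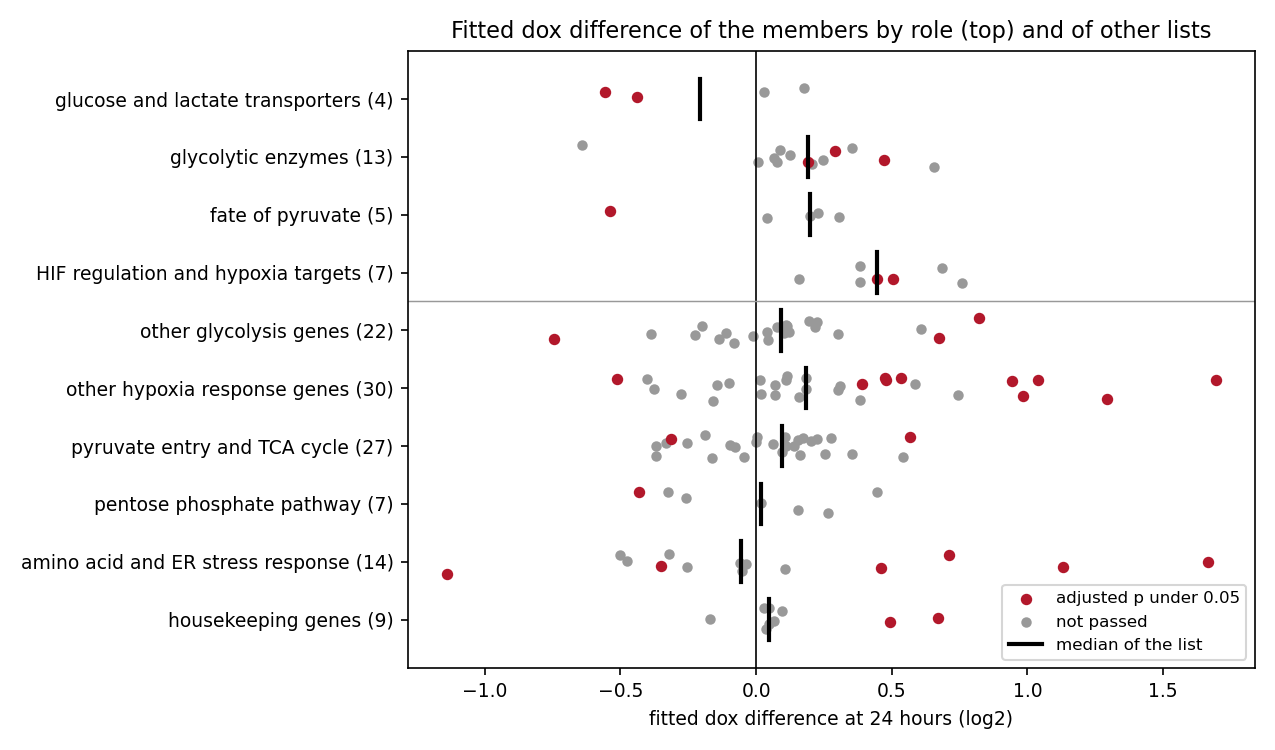
The fitted change with dox in log2 units at 24 hours (horizontal axis) for each gene of the members by role, above the grey line, and of 6 other lists, below it; red points passed an adjusted p of 0.05, grey points did not, and black bars are list medians. The bar of the HIF regulation and hypoxia targets lies at 0.44 and that of the transporters at -0.21.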

How the data were processed

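Total RNA of A2.Snail embryoid bodies was hybridised to 6 Affymetrix mouse arrays. dChip was used by the authors for normalization and modeling (its version: not given in the sources used here), and they deposited linear intensities with a lowest value of 1; these were used as deposited, without further scaling. Probe sets were named from the platform annotation (34945 of 45037 had 1 symbol, 932 several, 9160 none) and matched to the RefSeq gene table of GRCm38.p6 (34741 matched, 0 symbols changed). Each gene was represented by the probe set of highest mean, and it was tested where its highest value was above 37.2, the pooled 40th percentile. limma 3.58.1 in R 4.3.3 fitted log2(intensity + 20.6), the pooled 25th percentile as offset, on all 6 arrays with time as a block and the dox effect proportional to hours (eBayes with an intensity trend, 2 residual and 5.50 prior degrees of freedom). Benjamini-Hochberg adjusted p under 0.05 was called. The fit was tested on simulated data. The sources do not say whether each array came from a culture of its own, and the number of arrays limits precision.

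The members, lists, tests and alternatives were chosen with earlier results of these data known. All 29 measured members are named; of other lists, at most 3 genes with the largest fitted change in each direction and those with the largest difference over time are. The alternatives varied the offset, filter, normalization, probe set rule, model and left-out times; 1 check of signs at all 3 times under other scalings was added after the data were seen. Python 3.11.15 and matplotlib 3.10.9 drew the plots.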

Additional observations from a re-analysis of the deposited data

Results flagged for a closer look

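For 5 of the 29 genes the difference with dox had opposite signs at 6 and 24 hours; each time has 1 array per condition, and the difference between times was not tested. This was 17.2% of them, against 39.5% of all genes tested. At 24 hours the DKK + dox minus DKK difference in log2 intensity was 1.06 for Egln3, 0.45 for Hk1, 0.16 for Aldoc and 0.12 for Pdk3, all of which were below 0 at 6 hours. For Slc16a1 it was -0.43 at 24 hours and 0.04 at 6 hours.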

How the results depend on the processing

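The direction of all 8 genes called for dox was the same under the 16 alternatives run on each of them. Those that changed only the filter, the eBayes step or the time term left the fitted value as it was. Their direction was therefore fixed in advance. Against 5 members that rose with the filter used (8.32% of all genes), 8 rose with the stricter filter at the 60th percentile (11.2% of all genes). When the limit had to be passed on every array, 8 rose (9.93% of all genes). When each probe set was tested, 8 of them rose (6.81% of all probe sets). With the mean of all probe sets 3 rose and 0 fell (5.79% and 5.18% of all genes). With plain probe sets (no suffix that marks shared sequence) 1 fell (5.78% of all genes). With a constant difference, linear time or no intensity trend, 0 rose and 0 fell. Leaving out 1 time, 1 to 4 rose and 1 to 2 fell. From 6 to 12 hours in DKK, members that rose were 0 with the mean of all probe sets, linear time or no intensity trend, and members that fell were 4 with a constant difference or no intensity trend and 0 with linear time, where Pfkm (0.0103) and Aldoc (0.0771) changed sign. From 12 to 24 hours 1 rose, Aldoc, after centring. The cause was not tested; the fits that left out a time had fewer arrays. The medians at each time moved by less than the spread over the members. In single-gene results for dox, 76 calls held, 52 were lost and 13 were gained over the alternatives. The labels give no replicate numbers, and the fit pairs the 2 conditions by time. Eno2 and Car9, near the low-signal limit, had the largest standard errors of the members (0.31 and 0.25), and Egln3, far above it, had 0.24.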

Other observations

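Genes of the amino acid and endoplasmic reticulum stress response were measured beside the hypoxia genes, and 4 of 14 rose with dox (28.6%, where 8.32% of all genes did) and 2 fell (14.3%, where 6.38% did), with a median of -0.11 at 24 hours. Atf3, a stress-induced transcription factor, read 30.2, 51.8 and 49.3 without dox and 34.1, 106 and 216 with it, a fitted 1.67 (SE 0.24, adjusted p = 0.00567 from limma). Vldlr, a lipoprotein receptor, rose by 1.13 and Asns, asparagine synthetase, by 0.71. Atf4, the central factor of this response, did not pass (a fitted -0.04), nor did Ddit3 (-0.06), Chac1 (-0.50) and Trib3 (-0.48). These are among the 8 of the list that did not pass, and were named after their values were seen. Phgdh, which opens serine synthesis from a glycolytic intermediate, read 2125, 2303 and 2531 without dox and 2078, 1652 and 1051 with it, a fall of 1.14 (SE 0.12, adjusted p = 0.00231 from limma), and Psat1, the next enzyme of serine synthesis, fell by 0.35. In DKK, Anxa1, Epas1 and Hmox1 had the largest differences from 6 to 24 hours among the further hypoxia genes, at -3.11, -2.58 and -0.92.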
